A study of Homo sapiens with 84 samples.

Results

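MDA-MB-231 cells treated with tazemetostat and ipatasertib together (COMBO) were compared with vehicle-treated MDA-MB-231 cells (DMSO) by ATAC-seq, across all peaks of the deposited count table and across peaks summed by gene. The comparison rests on 6 libraries, 3 COMBO and 3 DMSO, of the 78 libraries from 9 triple-negative breast cancer lines that have a column in that table. MDA-MB-231 is an established human triple-negative breast cancer line with mesenchymal features. Tazemetostat inhibits EZH2 and ipatasertib inhibits AKT, and the question posed by the groups is what the combination changed in open chromatin. Tazemetostat alone (TAZ) and ipatasertib alone (IPATA), with 3 MDA-MB-231 libraries each, are given beside the combination, and the COMBO and DMSO libraries of the other 8 lines, 48 in all, serve to show where MDA-MB-231 differed. Per the labels' protocols, cells were kept in 2% FBS, tazemetostat was given at 5 uM from day -5 with passages on days -3 and -1, ipatasertib was given at 5 uM on day 0, and cells were collected 24 h later. That schedule is written for the line MDA-MB-468 and is taken here to hold for MDA-MB-231, so COMBO cells had longer exposure to tazemetostat than to ipatasertib. Each library came from 50000 cells of this line, and all results are for the line as cultured.

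EZH2 is the catalytic subunit of Polycomb repressive complex 2 (PRC2), which methylates lysine 27 of histone H3 and keeps developmental genes closed in cells that do not use them. AKT is a kinase downstream of PI3K that holds FOXO transcription factors out of the nucleus and promotes growth and survival. ATAC-seq counts the sites at which the Tn5 transposase cuts open chromatin, so a higher count at a peak is read as more accessible DNA and not as more RNA.

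The COMBO libraries held 14783017 to 15193636 counts in peaks and the DMSO libraries 14047089 to 15173727. Of 861439 peaks, 206817 had enough counts in the 12 MDA-MB-231 libraries to be tested, and 21563 genes were tested on the summed counts of the peaks within 10 kb of a transcription start site (TSS). Replicate libraries of a group differed by no more than sampling noise: the variance of their count differences was 0.824 to 0.887 times that of Poisson counts, against 1.89 to 2.03 times between a COMBO and a DMSO library. The 3 libraries of a group therefore stand for 1 sample: each library's value is given, and no SD is. The tests still took the libraries singly, and labels do not say whether they came from separate cultures, so SEs and p-values measure counting error between these libraries, not the spread of repeated cultures. A few single peaks differed between replicate libraries all the same: COMBO replicate 3 was lower than COMBO replicate 1 at 2 peaks, near BAIAP2 and ODC1, and DMSO replicate 3 was lower than DMSO replicates 1 or 2 at peaks near BAIAP2, FAM71A, NR4A2 and LMNA. At DMSO the line's markers fitted its label in part. Its summed level over 23 mesenchymal markers, 2078 CPM (counts scaled by library size), ranked 3 of the 9 lines, and over 29 epithelial markers, 2138 CPM, it ranked 6 of 9. VIM (vimentin) ranked 2 of 9, whereas TWIST1, a transcription factor of mesenchymal cells, was lowest of the 9 at 5.58 CPM.

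Peaks called risen were weaker, farther from a TSS and had larger folds at the median than peaks called fallen. A weak peak needs a larger fold to be called, so the fold sizes of called peaks cannot be compared across levels. Introns held 44.8% of risen and 43.1% of tested peaks, and distal intergenic peaks made up 34.3% and 27.6%. By the edgeR quasi-likelihood test with Benjamini-Hochberg adjustment at 0.05, which gives all adjusted p-values below, 19759 peaks (9.55% of those tested) rose in COMBO and 17161 (8.30%) fell. With a log2 fold of at least 1 in addition, 9868 peaks (4.77%) rose and 2658 (1.29%) fell. Risen peaks had a median log2 fold of 0.998 and fallen peaks one of -0.41. Levels in the IPATA libraries, which did not enter the contrast, had a median of 1.09 CPM in risen peaks, 9.45 CPM in fallen peaks and 1.52 CPM in the others. Risen peaks lay a median of 52420 bp from the nearest TSS and fallen peaks 12910 bp. Scaled by total counts in place of trimmed means, 66.7% of the called peaks rose, against 53.5%, and the median of all tested peaks shifted by 0.05 on the log2 scale.

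Distal intergenic peaks rose most often, with 6782 of 57109 risen (11.9%) and 2415 fallen (4.23%). In introns 8856 of 89061 peaks rose (9.94%) and 5210 fell (5.85%). Peaks within 1 kb of a TSS went the other way, with 891 of 17363 risen (5.13%) and 5245 fallen (30.2%), and made up 30.6% of all fallen peaks. The size of that fall depended on the scaling: by total counts 2997 promoter peaks (17.3%) fell and 1071 rose, and with offsets that remove any trend with signal level 1499 (8.63%) fell and 1034 (5.96%) rose. The median log2 fold of promoter peaks was -0.14 by trimmed means, -0.09 by total counts and -0.04 with trended offsets. Distal intergenic peaks had more rises than falls under each of these, with 7765 rises and 1681 falls by total counts and 5298 and 2367 with trended offsets.

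Level and class moved together. Among peaks with a mean log2 CPM below 0, 10.7% rose and 2.92% fell, and among those at 4 or more, 1.92% rose and 37.0% fell. The share of all counts that lay in peaks within 1000 bp of a TSS was 24.4%, 24.6% and 24.6% in the 3 COMBO libraries and 26.3%, 26.3% and 26.1% in the 3 DMSO libraries. The COMBO libraries were all lower, by 1.73 percentage points on average, where an exact two-sided permutation test of 3 against 3 cannot go below p = 0.1. The IPATA libraries had 25.9% to 26.1% and the TAZ libraries 23.5% to 24.4%.

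**Figure D1:**
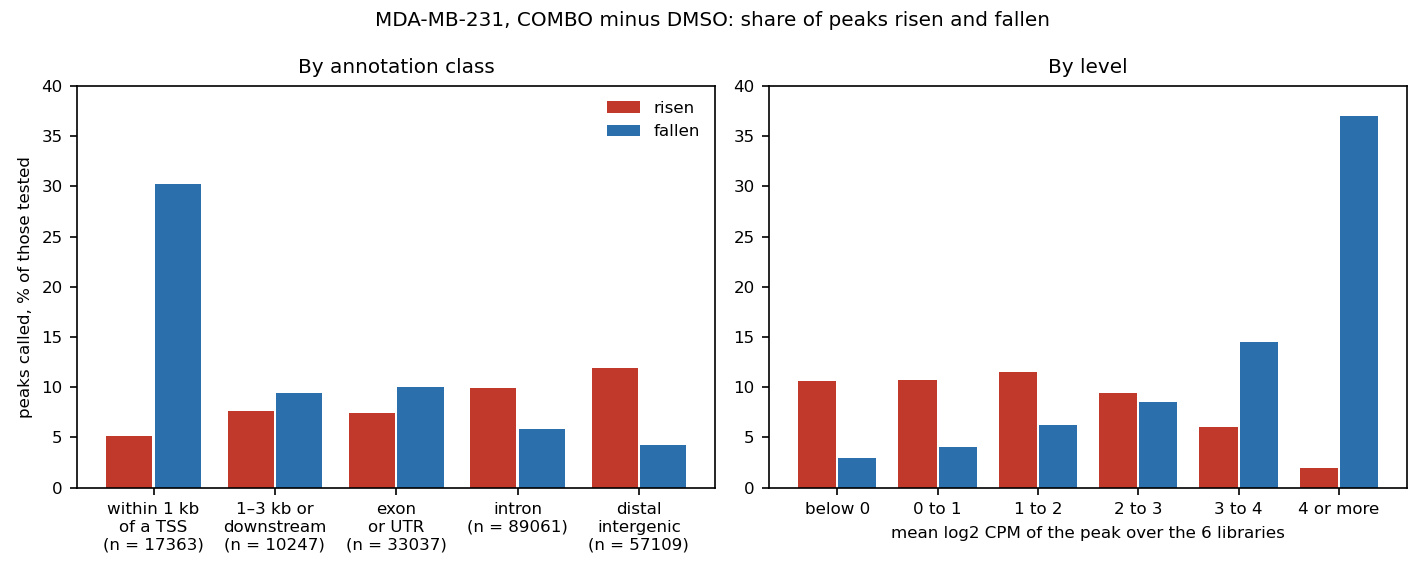
Share of tested peaks (y axis, percent) that rose (red) or fell (blue) in COMBO relative to DMSO, by place in the genome (left) and by mean log2 CPM over the 6 libraries (right). Fallen peaks reach 30.2% within 1 kb of a TSS and 37.0% in the highest level class, while risen peaks reach 11.9% among distal intergenic peaks.

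Promoters were read in RefSeq windows of GRCh38.p14, each 250 bases before to 50 after a gene's start. Of 35116 windows, 20949 lay with at least 50% of their bases in a tested peak, of which 876 were in a risen peak and 7998 in a fallen one. The 20949 lay in 14784 peaks, the 876 in 756 and the 7998 in 4958, so a peak can count more than once below. Promoters in risen peaks held a median of 7 CpG dinucleotides and 55.0% G and C, those in fallen peaks 27 CpG and 65.3%, and all 20949 held 24 and 64.3%. Of promoters with 0 to 4 CpG, 13.7% were in a risen peak and 7.79% in a fallen one, while of those with 30 or more, 1.88% and 44.4% were. CpG content moved with level: the median level in IPATA libraries was 2.70 CPM for promoters with 0 to 4 CpG and 25.9 CPM for those with 30 or more.

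The sequences below show promoters from both sides, with 3 of the largest rises first, among protein-coding genes whose window lay in a peak within 1 kb of a TSS (mean log2 CPM not under 2), and then 3 of the smallest adjusted p among those that fell. Of the first 3 only MC4R has fewer CpG than the median promoter in a risen peak, and NEUROG3 and ENPP5 have more. Each is the 250 bases before the RefSeq start (GRCh38.p14), 5′ to 3′ on the gene's strand, with CpG dinucleotides in capitals.
NEUROG3: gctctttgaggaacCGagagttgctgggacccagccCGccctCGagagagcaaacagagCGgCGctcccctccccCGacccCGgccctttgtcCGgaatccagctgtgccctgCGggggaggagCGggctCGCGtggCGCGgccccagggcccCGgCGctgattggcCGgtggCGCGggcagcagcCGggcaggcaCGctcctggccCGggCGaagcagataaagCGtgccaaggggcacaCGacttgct
ENPP5: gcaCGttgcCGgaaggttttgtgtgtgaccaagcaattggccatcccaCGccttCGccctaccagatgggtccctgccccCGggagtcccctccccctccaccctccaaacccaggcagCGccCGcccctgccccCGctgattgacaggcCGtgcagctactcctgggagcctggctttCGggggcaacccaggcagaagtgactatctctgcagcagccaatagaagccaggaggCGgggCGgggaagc
MC4R: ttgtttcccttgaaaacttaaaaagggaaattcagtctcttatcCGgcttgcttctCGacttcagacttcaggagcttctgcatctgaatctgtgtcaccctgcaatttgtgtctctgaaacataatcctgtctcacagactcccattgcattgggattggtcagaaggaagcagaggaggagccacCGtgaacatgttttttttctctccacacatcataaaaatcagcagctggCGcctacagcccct
PHF10: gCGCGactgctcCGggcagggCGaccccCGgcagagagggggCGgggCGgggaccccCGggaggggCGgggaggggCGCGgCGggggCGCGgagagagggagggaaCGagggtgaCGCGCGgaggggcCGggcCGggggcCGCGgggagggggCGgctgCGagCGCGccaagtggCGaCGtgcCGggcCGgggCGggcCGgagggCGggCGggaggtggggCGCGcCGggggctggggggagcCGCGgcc
FLOT1: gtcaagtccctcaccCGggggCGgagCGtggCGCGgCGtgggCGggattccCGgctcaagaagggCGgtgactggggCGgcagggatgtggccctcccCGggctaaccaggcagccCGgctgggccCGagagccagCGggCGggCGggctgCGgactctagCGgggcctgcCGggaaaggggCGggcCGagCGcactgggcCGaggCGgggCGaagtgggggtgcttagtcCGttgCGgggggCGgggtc
LEKR1: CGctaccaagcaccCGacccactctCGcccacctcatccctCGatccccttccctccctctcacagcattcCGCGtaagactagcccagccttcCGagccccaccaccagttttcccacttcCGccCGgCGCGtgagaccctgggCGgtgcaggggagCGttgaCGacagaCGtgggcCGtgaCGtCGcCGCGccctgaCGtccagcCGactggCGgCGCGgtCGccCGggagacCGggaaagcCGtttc
NEUROG3, a transcription factor of endocrine progenitors (chr10:69573423-69573672, minus strand, 25 CpG), had 8.59, 8.28 and 8.84 CPM in its promoter peak in COMBO libraries and 3.53, 3.43 and 3.58 CPM in DMSO libraries, a log2 fold of 1.28 (adjusted p = 2.61e-17). ENPP5, an ectonucleotidase family member (chr6:46170981-46171230, minus strand, 12 CpG), had 9.90, 10.9 and 10.5 CPM in COMBO and 5.41, 4.33 and 3.81 CPM in DMSO. MC4R, a melanocortin receptor of the brain (chr18:60372776-60373025, minus strand, 4 CpG), had 6.55, 5.49 and 6.48 CPM in COMBO and 2.86, 2.78 and 3.19 CPM in DMSO. None of these 3 overlapped between the groups, and all were weak in DMSO cells.

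PHF10, a subunit of a SWI/SNF chromatin remodelling complex (chr6:169724501-169724750, minus strand, 39 CpG), had 39.4, 39.7 and 38.7 CPM in COMBO and 57.6, 58.4 and 60.0 CPM in DMSO, a log2 fold of -0.58 (adjusted p = 4.76e-31). FLOT1, a membrane microdomain protein (chr6:30742688-30742937, minus strand, 28 CpG), had 56.2, 54.6 and 53.8 CPM in COMBO and 74.7, 73.5 and 71.1 CPM in DMSO. LEKR1 (chr3:156826103-156826352, plus strand, 29 CpG) had 27.7, 26.9 and 27.0 CPM in COMBO and 40.6, 40.3 and 40.0 CPM in DMSO. Strong as they are, these peaks fell by under 1 log2 unit with no overlap between the groups.

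Short motifs were counted on both strands of all windows. The ETS motif CCGGAAG stood in 2.51% of promoters in risen peaks, 23.6% of those in fallen peaks, 15.2% of all promoters in a tested peak and 10.3% of all 35116. The GC box GGGGCGG, which can hold part of other G-rich motifs, stood in 22.8% of the risen, 48.6% of the fallen, 44.9% of all in a tested peak and 30.8% of all 35116. The reverse held for the TATA box TATAAA, in 12.1% of the risen, 4.16% of the fallen, 6.01% of all in a tested peak and 11.5% of all 35116, and for the AP-1 motif TGANTCA, in 10.7%, 4.61%, 6.93% and 7.71% of the same sets. The CCAAT box CCAAT stood in 33.2%, 34.4%, 33.5% and 34.6% of them, the E-box CACGTG in 4.22%, 10.5%, 8.85% and 7.26%, and the forkhead motif TGTTTAC in 3.65%, 2.31%, 2.73% and 3.42%. Level and CpG content differed between these sets too, and no binding was measured.

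Single peaks are named here among calls with a mean log2 CPM of 2 or more and no overlap between the groups. The largest rise was in an intron of GRAMD1B, a cholesterol transfer protein (chr11:123517799-123520060, hg38), at 12.5, 12.8 and 11.1 CPM in COMBO libraries and 2.11, 2.70 and 1.87 CPM in DMSO libraries, a log2 fold of 2.45 ± 0.12 (SE, adjusted p = 5.84e-56). A peak 2804 bp from the TSS of FOXA1, a pioneer factor of luminal breast cells (chr14:37591344-37592445), had 10.6, 12.9 and 12.4 CPM in COMBO and 4.14, 3.76 and 3.35 CPM in DMSO, a log2 fold of 1.67 ± 0.11. Peaks near MIR148A, KCNIP1, GLIS1 and IL5RA, the other members of the 6 largest rises, rose by 1.88, 1.70, 1.68 and 1.67 on the log2 scale. In all 6 the TAZ libraries were within 0.21 log2 units of COMBO and the IPATA change did not pass the test.

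Promoter peaks that rose most were those of KRT86 (a hair keratin), CASP4LP (a caspase 4 pseudogene), SCN2B (a sodium channel subunit) and NEUROG3, by 1.53, 1.48, 1.43 and 1.28 on the log2 scale. The KRT86 peak had 12.01, 15.5 and 16.2 CPM in COMBO and 4.51, 6.05 and 4.59 CPM in DMSO. It lies among keratin genes of closely similar sequence, so its counts may be shared with a neighbour.

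The largest falls were at 2 peaks near NR4A2, an orphan nuclear receptor induced at once by many signals, and 2 in an intron of BAIAP2, an actin regulator. The first NR4A2 peak (chr2:156321498-156323404) had 1.89, 1.35 and 1.18 CPM in COMBO and 14.3, 11.9 and 7.63 CPM in DMSO, a log2 fold of -2.93 (adjusted p = 0.000990). DMSO replicate 3 was lowest of the DMSO libraries there, and also at the first BAIAP2 peak, with 7.47 CPM against 14.2 and 13.4, where COMBO had 2.62, 1.96 and 3.39 CPM. No overlap of the groups was a condition for naming these peaks. The log2 folds of both in IPATA, -1.81 and -1.18, did not pass the test. An ANKRD28 intronic peak (chr3:15777284-15779064) had 2.98, 3.01 and 3.09 CPM in COMBO, 7.62, 6.28 and 4.62 CPM in TAZ, 6.59, 5.27 and 5.03 CPM in IPATA and 10.9, 11.4 and 8.33 CPM in DMSO. This peak was lower in COMBO than in TAZ by 1.03 log2 units (adjusted p = 1.11e-06), as was a peak near HES4, a Notch target, by 0.58 (adjusted p = 0.0181).

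Some stretches of the genome held many changed peaks. Of 7804 windows of 200 kb with 10 or more tested peaks, 253 held 10 or more risen peaks and with them 18.4% of all risen peaks. In 172 there were 10 or more fallen peaks, with 12.7% of all fallen ones. Windows dense in tested peaks can hold more calls, and whether calls lay closer together than tested peaks do was not tested. The windows named here were picked after their values were seen. Around GFRA1, a receptor for glial-derived neurotrophic factor (chr10:116207275-116395624), 29 of 30 tested peaks rose and none fell, with a median log2 fold of 1.58 in COMBO, 1.43 in TAZ and -0.08 in IPATA. Around ACTN2, the alpha-actinin of muscle (chr1:236603892-236796350), 38 of 47 rose with a median of 1.66, and at MYT1L, a neuronal zinc finger factor (chr2:1803665-1996489), 32 of 46 rose with a median of 1.22. Among windows with many falls, 27 of 40 peaks around NAMPT, the rate-limiting enzyme of NAD salvage (chr7:106205160-106378550), fell and none rose, with a median of -0.96 in COMBO, -0.53 in TAZ and -0.37 in IPATA. At PDHX and CD44, a hyaluronan receptor (chr11:35003131-35190241), 24 of 53 fell with a median of -0.30.

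Summed by gene, 3281 genes (15.2% of 21563) rose and 2159 (10%) fell, and with a log2 fold of at least 0.5 in addition 1456 (6.75%) rose and 355 (1.65%) fell. Of the called genes 60.3% rose, and 70.8% of the fewer genes that DESeq2 called. All 10 of the largest rises were in genes at or under 8.42 CPM in each DMSO library. A2M, the plasma protease inhibitor alpha-2-macroglobulin, had 33.6, 30.7 and 30.5 CPM in COMBO and 5.75, 4.26 and 5.67 CPM in DMSO, a log2 fold of 2.59 ± 0.12 (SE, adjusted p = 4.54e-33). ACTN2 had 38.2, 34.4 and 36.5 CPM in COMBO and 6.90, 8.35 and 8.42 CPM in DMSO (log2 fold 2.21). HSPB3, a small heat shock protein of muscle, had 30.2, 31.2 and 31.0 CPM in COMBO and 8.21, 5.51 and 5.33 CPM in DMSO (2.27). In all 3 the lowest COMBO library lay far above the highest DMSO library, though genes were named only if the groups did not overlap.

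Others of the 10 largest rises were RFPL4AL1 (2.46), whose counts may be shared with its near-identical copy RFPL4A, the olfactory receptor OR51E2 (2.04), the transcription factor ZFHX3 (2.02), the cap-binding protein EIF4E3 (1.99), the synaptic protein UNC13C (1.97), the neural POU factor POU3F4 (1.94) and the potassium channel KCNA5 (1.92). KCNA5 had 18.1, 17.1 and 20.7 CPM in COMBO and 4.76, 4.97 and 4.98 CPM in DMSO. POU3F4 had 6.55, 10.2 and 9.64 CPM in COMBO and 2.63, 2.13 and 2.06 CPM in DMSO.

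DNAJA1, a co-chaperone of HSP70, fell most, with 8.79, 7.94 and 8.78 CPM in COMBO and 29.1, 23.3 and 26.3 CPM in DMSO, a log2 fold of -1.63 ± 0.12 (SE, adjusted p = 7.61e-21). Its TAZ libraries stood between, at 15.1, 14.3 and 9.90 CPM, and COMBO was lower than TAZ by 0.62 log2 units (adjusted p = 0.0223). TTC19, a mitochondrial complex III assembly factor, had 8.61, 7.06 and 8.09 CPM in COMBO and 19.9, 20.8 and 16.7 CPM in DMSO (-1.27). The rest were low genes: CCL1, a chemokine (-1.20), IVL, involucrin of the cornified envelope (-1.17), S100A8, a calcium-binding protein of myeloid cells and keratinocytes (-1.11), and CYP4F3, EID3, GPR26, MLF1 and BPIFA2 (-1.11 to -1.09). S100A8 had 4.48, 4.41 and 6.03 CPM in COMBO and 10.7, 11.4 and 10.3 CPM in DMSO, and was not called with peaks within 1 kb only (-0.76, adjusted p = 0.168).

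**Figure D2:**
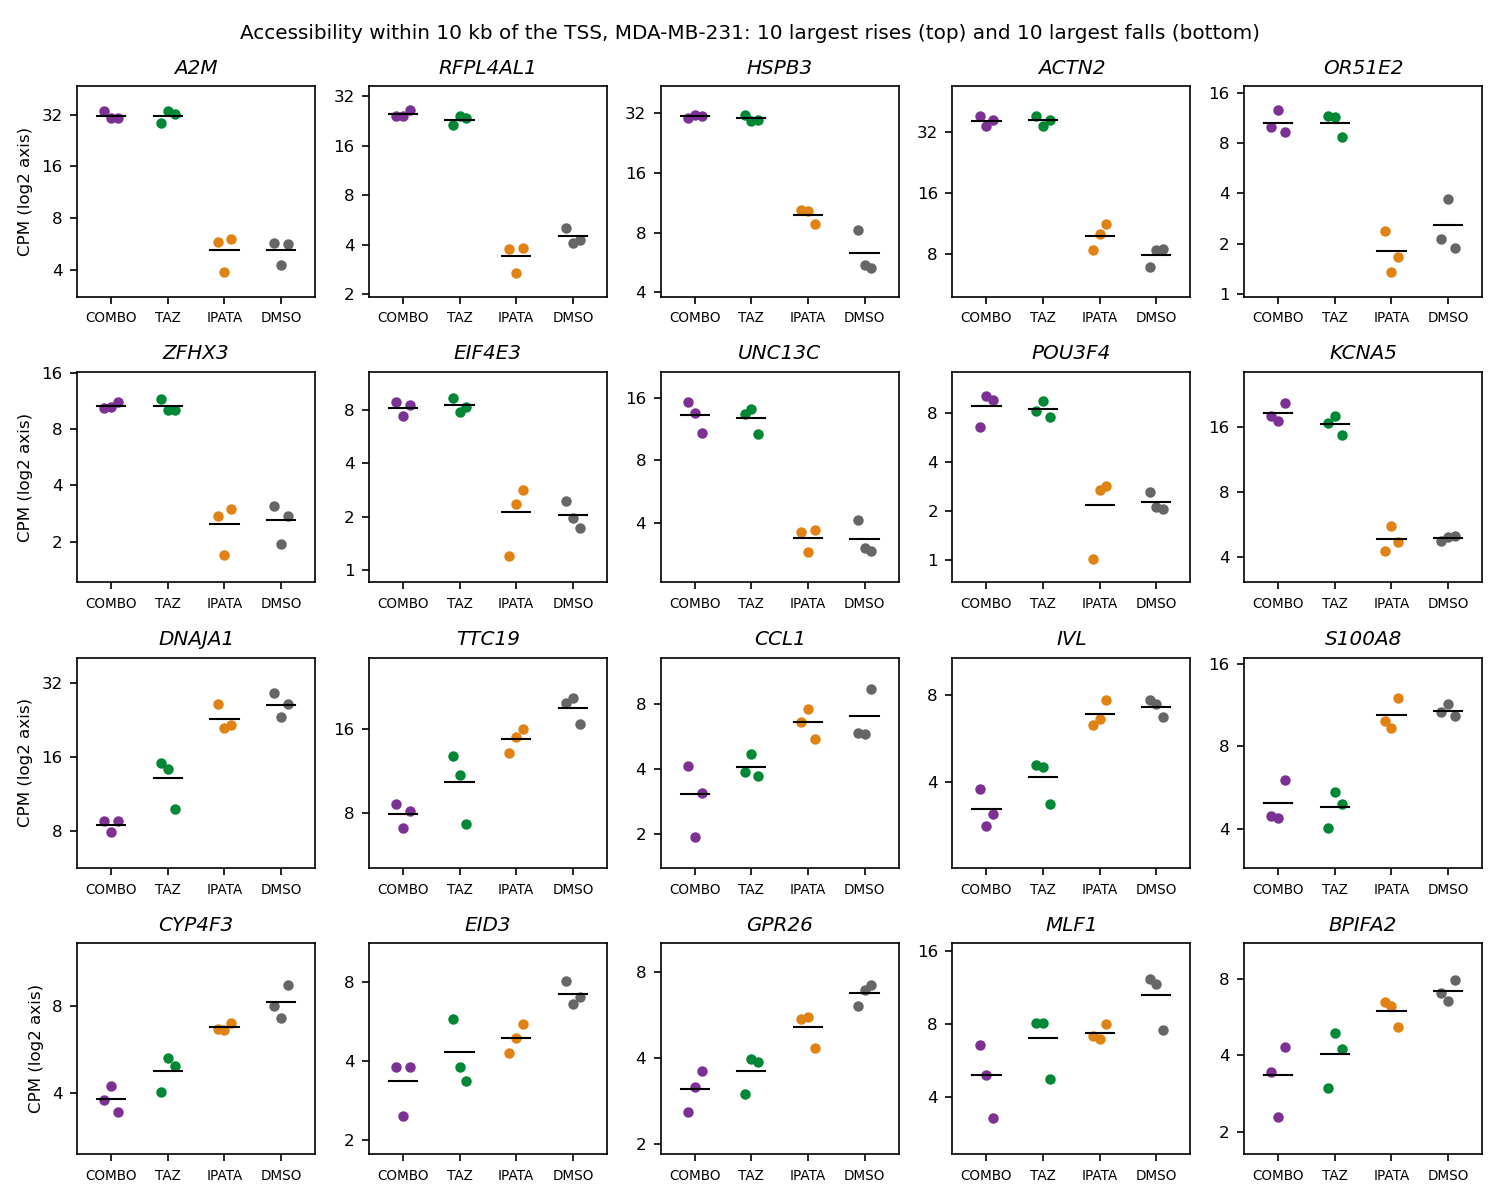
CPM (log2 axis) of the peaks within 10 kb of the TSS for the 10 genes with the largest rises (upper rows) and the 10 with the largest falls (lower rows) in MDA-MB-231, 1 dot per library and a bar at the mean. COMBO and TAZ dots lie above IPATA and DMSO dots for each rise, such as A2M at 30.5 to 33.6 CPM in COMBO and 4.26 to 5.75 CPM in DMSO.

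Gene lists are given by how many members were called, beside the 15.2% of all genes that rose and the 10% that fell. With trended offsets the calls of GRHL3, ESRP1, MME, HOXC13, CXCL5, ERG, FLT4, CD4, TYROBP and ACTB below were lost.

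The drug targets themselves showed no call. EZH2 had 82.7, 80.3 and 80.4 CPM in COMBO and 79.5, 79.1 and 82.0 CPM in DMSO (log2 fold 0.02 ± 0.05 SE, adjusted p = 0.857), and AKT1 had 81.1, 91.9 and 85.2 CPM in COMBO and 81.5, 85.8 and 79.9 CPM in DMSO (0.06 ± 0.05, adjusted p = 0.408). Of 23 PRC2 subunits and opponents, 3 rose, among them AEBP2 (a PRC2 accessory subunit, 0.37) and CBX8, a reader of the PRC2 mark (0.20), and KDM6B, a demethylase that removes the mark, fell by 0.20. KDM6B had 361, 365 and 356 CPM in COMBO and 411, 419 and 409 CPM in DMSO. AEBP2 was not called without DMSO replicate 1 (adjusted p = 0.0555) or with peaks within 50 kb (log2 fold 0.057, adjusted p = 0.373), nor CBX8 with peaks within 1 kb only (0.13, adjusted p = 0.238).

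Of 95 tested developmental genes known as PRC2 targets, 23 rose and 2 fell, where 15.2% and 10% of all genes did, with a median log2 fold of 0.08 against -0.005 for all 21563 genes. DESeq2 called 14 risen and 0 fallen of the 95, where it called 1786 genes risen and 737 fallen in all, and with peaks within 1 kb only 8 of 56 rose and 0 fell, where 1566 of 15681 genes rose. TBX20, a T-box factor of heart, had 26.2, 23.8 and 23.8 CPM in COMBO and 9.69, 8.17 and 8.08 CPM in DMSO (log2 fold 1.502). OTX2, a head organiser factor, had 5.17, 4.94 and 5.68 CPM in COMBO and 2.96, 2.13 and 1.72 CPM in DMSO (1.20). NEUROG3 (1.10) and LHX8, a forebrain LIM factor (0.95), were next, while SIX2 (-0.11) and DLX1 (-0.47) fell. In IPATA 0 of the 95 rose or fell, and in TAZ 26 rose and 3 fell.

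Among 28 HOX genes, which pattern the body axis, 4 rose and 2 fell, and all that rose belong to the HOXC cluster. HOXC5 had 15.7, 16.9 and 17.2 CPM in COMBO and 7.39, 5.86 and 7.39 CPM in DMSO (log2 fold 1.27, adjusted p = 9.94e-13). The HOXC5 sum holds only 1 peak, 4935 bp from the annotated TSS. HOXC12 had 22.2, 23.1 and 24.1 CPM in COMBO and 12.8, 13.2 and 10.8 CPM in DMSO (0.92). HOXC10 rose by 0.49, though with peaks within 1 kb only its log2 fold was -0.26 (adjusted p = 0.687), and HOXC13 by 0.50 (adjusted p = 0.0482), a call that DESeq2 did not make (adjusted p = 0.235), that was lost with peaks within 1 kb only (0.31, adjusted p = 0.594) and without either COMBO replicate 1 or 3 or DMSO replicate 1 or 3, and that rests on 5.29 to 8.44 CPM in COMBO. HOXD4 fell by 0.40 and HOXA7 by 0.22, and DESeq2 called 3 risen and 1 fallen of the 28. The median of the 28 genes was -0.01.

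Of 20 luminal lineage genes of the breast, 9 rose and 3 fell, where 15.2% and 10% of all genes did, with a median of 0.21. PGR, the progesterone receptor, had 36.9, 38.1 and 38.2 CPM in COMBO and 21.7, 22.4 and 20.1 CPM in DMSO (log2 fold 0.82). ESR1, the estrogen receptor, had 3.45, 4.76 and 4.31 CPM in COMBO and 3.45, 1.78 and 1.55 CPM in DMSO (0.86), where DMSO replicate 1 was at the level of the lowest COMBO library. The ESR1 call was not made by DESeq2 (adjusted p = 0.102), and was lost without COMBO replicate 2, DMSO replicate 2 or DMSO replicate 3. FOXA1 rose by 0.65. The 3 that fell were MLPH (-0.16), AREG (-0.22) and GATA3, a luminal master factor (-0.28), and the GATA3 call was not made by DESeq2 (adjusted p = 0.103) and was lost without COMBO replicate 3 or DMSO replicate 3.

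Of 29 epithelial markers, 10 rose and 0 fell, with a median of 0.12. OVOL2, a zinc finger repressor of mesenchymal genes, had 70.1, 62.6 and 67.2 CPM in COMBO and 43.2, 42.8 and 42.4 CPM in DMSO (0.64), and its relative OVOL1 rose by 0.46. GRHL3 rose by 0.41 and the splicing factor ESRP1 by 0.28, and these calls were not made by DESeq2 (adjusted p = 0.178 and 0.177) and were both lost without COMBO replicate 1, DMSO replicate 2 or DMSO replicate 3, the first also without COMBO replicate 2 and the other without COMBO replicate 3. CDH1, epithelial cadherin, had 76.0, 69.7 and 73.0 CPM in COMBO and 70.9, 64.3 and 64.1 CPM in DMSO and was not called (adjusted p = 0.0823), but was called risen with peaks within 50 kb (0.18, adjusted p = 0.000321), with trended offsets (0.16, adjusted p = 0.0278) and without DMSO replicate 1 (0.18, adjusted p = 0.0344). OVOL1 was not called with peaks within 1 kb only (0.35, adjusted p = 0.150), nor GRHL3 within 50 kb (0.043, adjusted p = 0.339). Summed epithelial markers stood at 2310, 2273 and 2263 CPM in COMBO and 2146, 2116 and 2156 CPM in DMSO, without overlap.

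Of 23 mesenchymal markers, TGFBI (0.16), TNC (0.15) and COL5A1 (0.10) rose and 0 fell, where 15.2% and 10% of all genes did, with a median of 0.003. With peaks within 50 kb these 3 were not called, and 0 of the 23 rose and 3 fell. DESeq2 called 0 of the 23 in either direction, TNC lost its call whichever of the 6 libraries was left out, and COL5A1 was not called without DMSO replicate 1 or COMBO replicate 2. TGFBI and COL5A1 were not called with peaks within 1 kb only (adjusted p = 0.144 and 0.573). VIM had 207, 205 and 203 CPM in COMBO and 213, 215 and 221 CPM in DMSO (log2 fold -0.08, adjusted p = 0.0679), while with peaks within 1 kb only it rose by 0.12 (adjusted p = 0.0258) and with peaks within 50 kb it fell by 0.11 (adjusted p = 0.00666). ZEB1, a transcription factor among the 23, was not called (0.12, adjusted p = 0.124). With trended offsets it was called risen (0.15, adjusted p = 0.0452), and 4 of the 23 rose. The sum of the 23 markers was 2106, 2094 and 2106 CPM in COMBO and 2074, 2099 and 2067 CPM in DMSO, which overlap. Of 23 basal lineage genes, 4 rose, among them MME at 0.57 and KRT15 at 0.38, and KRT5 fell by 0.54. DESeq2 did not call MME (adjusted p = 0.117) or KRT5 (adjusted p = 0.0592), KRT5 was not called without COMBO replicate 1, and MME was not called without DMSO replicate 1 or 3 or within 50 kb (0.081, adjusted p = 0.459).

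Markers of cells that a culture of this line should not hold were also called in part. Of 16 endothelial markers 5 rose and 0 fell: the VEGF receptors FLT1 (1.01) and FLT4 (0.31), the factor ERG (0.50) and the angiopoietin receptor genes TEK (0.49) and TIE1 (0.45). The sum of the 16 was 584, 592 and 593 CPM in COMBO and 549, 545 and 553 CPM in DMSO. Of 14 immune markers 5 rose and 0 fell, CD2 (0.82), CD163 (0.80), CD3G (0.66), CD4 (0.38) and TYROBP (0.33), with a sum of 515, 530 and 514 CPM in COMBO and 484, 495 and 488 CPM in DMSO. TIE1 was not called with peaks within 50 kb (0.054, adjusted p = 0.638). ERG was not called by DESeq2 (adjusted p = 0.140), within 1 kb (adjusted p = 0.141) or without COMBO replicate 2 or 3 or DMSO replicate 2 or 3, nor CD2 by DESeq2 (adjusted p = 0.0552) or without DMSO replicate 1. CD4 was not called by DESeq2 (adjusted p = 0.0849) or without COMBO replicate 3 (adjusted p = 0.103). DESeq2 called 3 endothelial and 2 immune markers risen, and FLT4 and TYROBP were not among them. With peaks within 1 kb only, 1 of 8 endothelial and 0 of 7 immune markers rose, where 1566 of 15681 genes did. With trended offsets 3 endothelial and 3 immune markers rose, and 1 immune marker fell. Of the other endothelial markers, CDH5, VWF, KDR and PECAM1 were not called, with PECAM1 at 32.4, 32.1 and 31.7 CPM in COMBO and 32.0, 28.6 and 24.6 CPM in DMSO, and the leukocyte markers PTPRC, MS4A1 and NKG7 had too few counts to be tested. Of 12 cancer-testis genes 5 rose, led by DPPA4 (1.19), and 0 fell, while DESeq2 called 1 of them risen. In bulk chromatin, more cells of a type and more open DNA per cell cannot be told apart.

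Of 25 PI3K, AKT and mTOR pathway genes 0 rose, and 3 fell, where 15.2% and 10% of all genes did. They were TSC1 (-0.25), RPTOR (-0.34) and RPS6KB1 (-0.80). RPS6KB1, which encodes S6 kinase, had only 3.10, 2.12 and 2.24 CPM in COMBO and 4.43, 4.26 and 4.30 CPM in DMSO, and was not called by DESeq2 (adjusted p = 0.133) or without DMSO replicate 1 or COMBO replicate 2 or 3. TSC1 was not called by DESeq2 (adjusted p = 0.0610) or without COMBO replicate 3, nor with peaks within 1 kb only (-0.12, adjusted p = 0.754), and RPTOR was not within 50 kb (-0.11, adjusted p = 0.109). Of 28 FOXO targets 5 rose and 4 fell. PCK1, an enzyme of gluconeogenesis, had 35.7, 44.1 and 36.7 CPM in COMBO and 17.4, 21.1 and 15.98 CPM in DMSO (1.10), TRIB1 rose by 0.19, and the stress gene DDIT4 (-0.24) and KLF2 (-0.17) fell. With peaks within 1 kb only DDIT4 stood at -0.047 (adjusted p = 0.508) and KLF2 at -0.0031 (adjusted p = 0.980), and neither was called. CDKN1A, BMF and IRS2 were not called (adjusted p = 0.239, 0.122 and 0.974).

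Stress and signalling genes split. Of 29 AP-1 and ERK feedback genes 9 rose and 4 fell: EGR1 had 445, 435 and 427 CPM in COMBO and 326, 339 and 355 CPM in DMSO (0.36), FOSB rose by 0.32 and the phosphatase gene DUSP1 by 0.24, while FOSL2 fell by 0.30, though not with peaks within 1 kb only (-0.057, adjusted p = 0.525). Of 22 YAP and TEAD targets 3 rose, with ANKRD1 at 0.50 and CCN2 at 0.27, and THBS1 fell by 0.22, a call not made within 1 kb (-0.12, adjusted p = 0.0535). Of 25 NF-kB and inflammatory genes 4 rose and 8 fell. IL6 had 37.2, 35.1 and 33.9 CPM in COMBO and 45.3, 50.1 and 48.6 CPM in DMSO (-0.44), and the adhesion gene VCAM1 fell by 0.42. CCL2 fell by 0.76 and CXCL5 rose by 0.45 at under 12 CPM, and DESeq2 called neither (adjusted p = 0.137 and 0.173).

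CCL2 was also not called without COMBO replicate 2 or 3 or DMSO replicate 1 or 2, nor CXCL5 without COMBO replicate 1 or DMSO replicate 1 or 2. With peaks within 1 kb only, 3 of 17 NF-kB genes rose and 1 fell.

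Of 25 genes described for metastasis of MDA-MB-231 derivatives, 10 rose and 3 fell. MMP1, a collagenase, had 7.24, 7.76 and 9.30 CPM in COMBO and 3.78, 2.67 and 3.44 CPM in DMSO (log2 fold 1.29), the decoy receptor IL13RA2 rose by 0.89, and the focal adhesion gene NEDD9 fell by 0.43. IL13RA2 was not called by DESeq2 (adjusted p = 0.0771) or within 50 kb (0.36, adjusted p = 0.126), nor NEDD9 within 1 kb (-0.37, adjusted p = 0.636). CXCR4, a chemokine receptor, had 36.4, 39.7 and 38.1 CPM in COMBO and 32.7, 29.5 and 29.04 CPM in DMSO (0.32), and was not called within 1 kb (0.18, adjusted p = 0.230). Of 20 interferon and antigen presentation genes 3 rose and 2 fell: ISG15, an ubiquitin-like protein, had 67.7, 56.1 and 56.0 CPM in COMBO and 107.9, 115.5 and 97.4 CPM in DMSO (-0.83), CIITA fell by 0.41 and OAS1 rose by 0.50. With peaks within 1 kb only, ISG15 was at -0.19 and not called (adjusted p = 0.165).

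Smaller groups were these. Of 28 neuronal genes 5 rose and 2 fell, with the sodium channel gene SCN2A at 0.87 and RBFOX3, a neuronal splicing factor, at -0.91. Of 16 BCL2 family genes 4 rose and 0 fell, with the survival gene BCL2A1 at 0.77 and the BH3-only gene HRK at 0.51. Of 40 replication and cell cycle genes 0 rose, where 15.2% of all genes did, and 4 fell, the 10% seen over all genes: AURKA (-0.17), RFC4 (-0.22), POLE2 (-0.25) and BUB1B (-0.27). DESeq2 called 0 of the 40. RFC4 was not called without DMSO replicate 1 or 3 or COMBO replicate 2 or 3, nor POLE2 without COMBO replicate 1 or 2 or DMSO replicate 1, nor BUB1B without COMBO replicate 1 or DMSO replicate 1. RFC4 and POLE2 were also not called within 1 kb (adjusted p = 0.116 and 0.211), nor BUB1B within 50 kb (adjusted p = 0.105). Of 25 SREBP targets 2 rose, among them FASN (0.12), and DESeq2 called 0. Of 24 mammary involution and gp130-STAT3 genes 3 rose, led by IGFBP5 (0.41), and 4 fell, among them CEBPB (-0.27), which was at -0.060 and not called within 1 kb (adjusted p = 0.449). Of 13 housekeeping genes, ACTB rose by 0.08, and RPLP0 (-0.25) and RPL13A (-0.22) fell. DESeq2 did not call ACTB (adjusted p = 0.254) or RPL13A (adjusted p = 0.0594), ACTB was called only when DMSO replicate 2 was the library left out, and RPL13A was not called without COMBO replicate 1. Within 1 kb neither ACTB nor RPL13A was called (adjusted p = 0.0928 and 0.521).

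**Figure D3:**
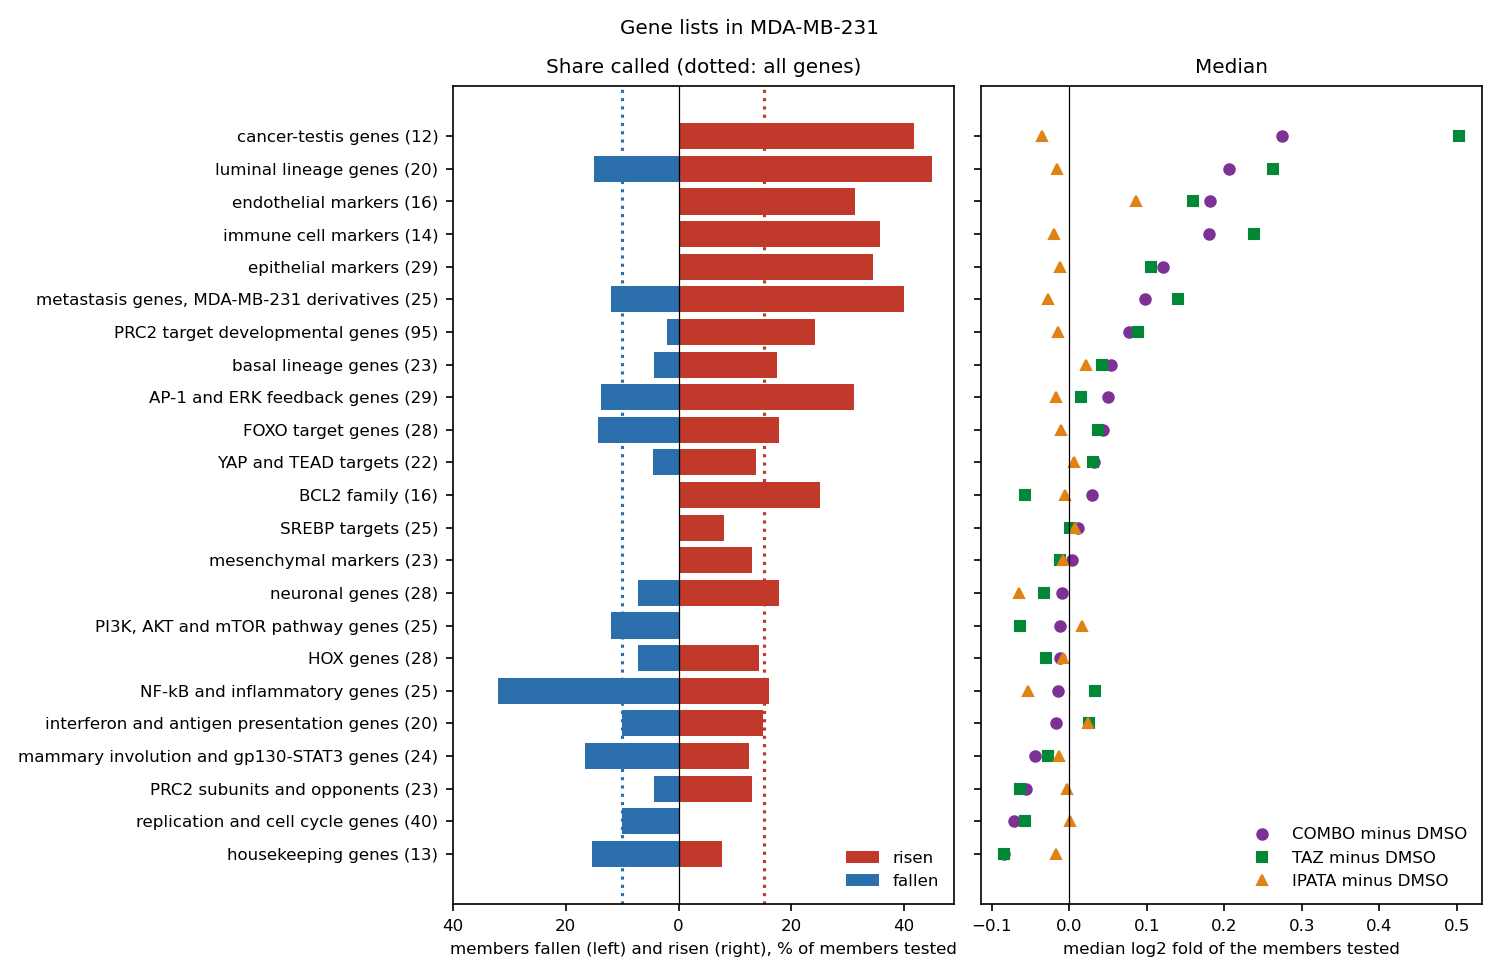
Left, share of each list's tested members that fell (blue, to the left) or rose (red, to the right) in COMBO relative to DMSO, with dotted lines at the shares of all 21563 genes, and list sizes in brackets. Right, median log2 fold of each list for COMBO, TAZ and IPATA, each minus DMSO, where IPATA medians lie between -0.07 and 0.09.

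Few genes separated the combination from tazemetostat alone, and many separated it from ipatasertib alone. The contrasts COMBO, TAZ and IPATA minus DMSO share the DMSO libraries, so they are given side by side. TAZ minus DMSO called 3343 genes risen (15.5%) and 2214 fallen (10.3%), and 18582 peaks risen and 17039 fallen. IPATA minus DMSO called 5 genes risen (0.0232%) and 32 fallen (0.148%), and 22 peaks risen and 138 fallen. A2M had log2 folds of 2.59 in COMBO, 2.58 in TAZ and -0.002 in IPATA, FOXA1 had 0.65, 0.65 and -0.09, and HOXC5 had 1.27, 1.34 and 0.10.

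Set against TAZ itself, 45 genes were higher and 31 lower in COMBO, 76 in all (0.352%), and 85 peaks were higher and 62 lower. Set against IPATA, 3054 genes were higher and 1736 lower in COMBO. FASN, fatty acid synthase, had 183, 182 and 180 CPM in COMBO, 148, 147 and 165 CPM in TAZ, 160, 172 and 176 CPM in IPATA and 164, 171 and 168 CPM in DMSO. It was higher in COMBO than in TAZ by 0.24 log2 units (adjusted p = 1.21e-06). Its rise over DMSO, 0.12, was not called by DESeq2 (adjusted p = 0.146) or without DMSO replicate 1, and with peaks within 50 kb its log2 fold was -0.03. A test of departure from the sum of both single-agent changes on the log2 scale called 21 genes (0.0974%), 19 above and 2 below.

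Above additivity, H4C9, a histone H4 gene, had 11.5, 17.99 and 17.1 CPM in COMBO, 8.62, 9.06 and 13.3 CPM in TAZ, 6.32, 3.56 and 3.84 CPM in IPATA and 11.8, 8.35 and 7.22 CPM in DMSO (departure 1.59, adjusted p = 0.0115). SNORA27, a small nucleolar RNA (1.19), and MSH4, a meiotic mismatch repair gene (0.92), were next. Below it stood LINC02104 (-0.43) and LOC112268123 (-0.32). DESeq2 called 0 genes departing in either direction, and the number above additivity was as low as 3, without TAZ replicate 1, so these 21 calls depend on the tool and on single libraries.

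The other 8 lines gave an independent set of libraries for the same contrast. Their mean response called 2091 genes risen (8.92%) and 3453 fallen (14.7%) of 23446 tested. Of 3277 genes risen in MDA-MB-231 with a value in both, 910 (27.8%) rose in the other lines and 85 (2.59%) fell, against 9.21% and 15.7% of all 21519 genes. These 910 are 45.9% of the genes risen in the other lines. Of 2157 genes fallen in MDA-MB-231, 1010 (46.8%) fell in the others, which are 29.9% of their falls, and 29 (1.34%) rose. A2M was up in all 8 other lines, by 0.40 to 2.77, as was PGR, by 0.46 to 1.46.

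Whether the response of MDA-MB-231 differed from that of the other 8 lines was tested with lines as replicates. By edgeR 0 of 23446 genes passed in either direction, 601 had an unadjusted p under 0.05, of which 384 were higher in MDA-MB-231, and the smallest adjusted p was 0.145. DESeq2 called 2 genes higher and 1 lower. With 1 line on one side, no gene named here is shown to respond in a way particular to MDA-MB-231. FOXA1 stood at 0.63 in MDA-MB-231 and ran from -0.31 to 0.40 in the other lines, as log2 differences between the summed COMBO and DMSO libraries of a line.

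**Figure D4:**
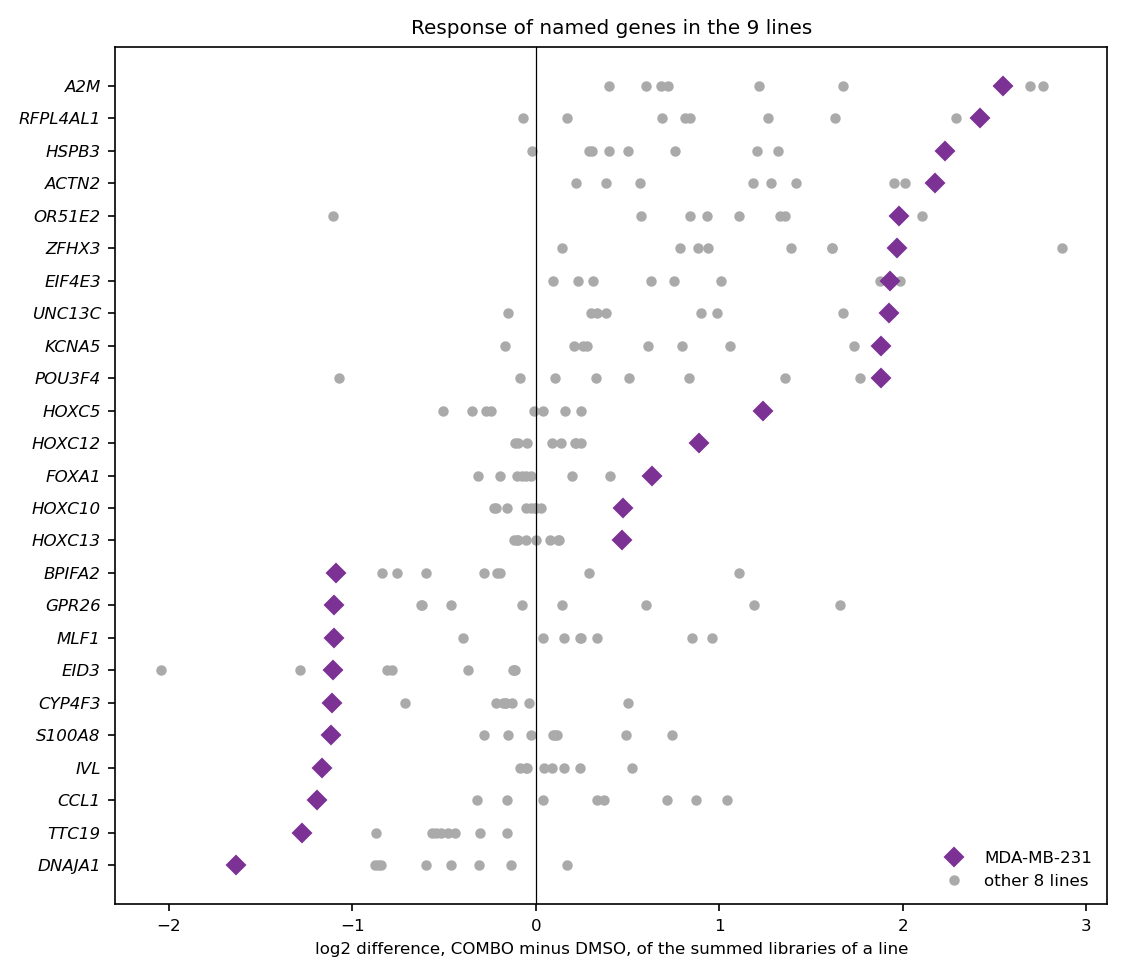
Log2 difference between summed COMBO and summed DMSO libraries of a line (x axis) for the 20 genes with the largest changes and for FOXA1 and 4 HOXC genes; the diamond is MDA-MB-231 and grey dots are the other 8 lines. The diamonds of HOXC5 and HOXC12 lie to the right of all grey dots, whereas A2M and ACTN2 have grey dots near the diamond.

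The HOXC region was looked at peak by peak after its genes had been seen to rise. Between the first and last tested peak of the region (chr12:53906831-54090695), 12 of 36 tested peaks outside promoters rose and 0 fell. Of all tested peaks 9.55% rose and 8.30% fell. The 36 had a median log2 fold of 0.59 and a range of -0.36 to 1.77. Of 6 peaks within 1 kb of a TSS 0 rose or fell, with a median of -0.03. Those of HOXC13, HOXC11 and HOXC10 were at or under 1.25 CPM in each COMBO and DMSO library. Their SEs were 0.33, 0.40 and 0.33, so only a large change could have been called there. The peak with the smallest adjusted p, nearest to HOXC5 (chr12:53990780-53991476), rose by 1.16 (adjusted p = 2.86e-12). It is the only peak in the HOXC5 gene sum, so both results rest on the same counts. Besides it, 4 peaks nearest to HOTAIR, a long noncoding RNA gene of the cluster, rose by 0.996 to 1.73. Summed over the region, COMBO libraries had 122, 121 and 124 CPM, TAZ libraries 123, 121 and 123, IPATA libraries 91.5, 90.8 and 98.3, and DMSO libraries 101, 95.4 and 91.1.

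COMBO and TAZ thus lay above IPATA and DMSO in every library. In DMSO cells MDA-MB-231 had the lowest level of the 9 lines there, 95.7 CPM, against 168 to 369 CPM in the others. The other lines changed by -0.27 to 0.09 log2 units, against 0.35 in MDA-MB-231.

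**Figure D5:**
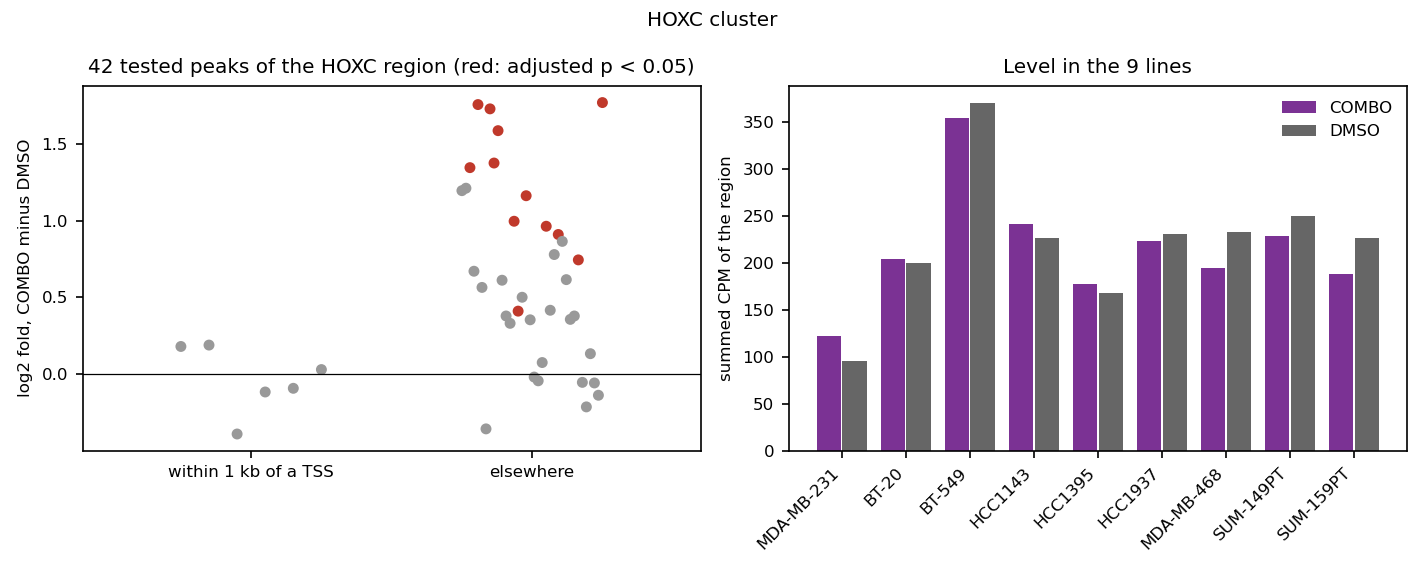
Left, log2 fold of COMBO over DMSO for each tested peak of the HOXC region in MDA-MB-231, split by distance to a TSS (red: adjusted p under 0.05). Right, summed CPM of the region in COMBO (purple) and DMSO (grey) libraries of each line; MDA-MB-231 stands at 122 in COMBO and 95.7 in DMSO, below every other line.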

How the data were processed

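Omni-ATAC libraries were deposited by the authors as 1 table of raw counts per peak and library, made with MACS2 and featureCounts on hg38, per the submitters' processing notes (versions and settings: not given in the sources used here). Peak annotations (nearest gene, distance to the TSS, class) are the authors'. All 78 libraries with a column were used, and the line HCC1806 was not analysed here. Of the peaks, 61 have no gene symbol and stayed out of gene sums. Depth in MDA-MB-231 was 14047089 to 15193636 counts per library.

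From these counts, gene sums over peaks within 10 kb of the TSS, library scaling (TMM) and tests were computed in R 4.3.3. Features passed filterByExpr (minimum count 10), edgeR 4.0.16 quasi-likelihood fits (robust) used 12 MDA-MB-231 libraries in 4 groups with no covariate, and p-values were adjusted by Benjamini-Hochberg over all features tested. An SE is the log2 fold divided by the t quantile that gives its p. Line differences were fitted on counts summed per line and group, with line as a block. DESeq2 1.42.0, other scalings (trended offsets: loess span 0.3), filters and gene windows, and fits without each library were alternatives. Scripts were tested on simulated data.

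Named genes and peaks are those with the largest changes among calls whose mean log2 CPM was 2 or more, with no overlap between groups and, for genes, with protein-coding type, plus a panel of 16 genes and up to 4 called members of each list. Members, lists and rules were chosen with earlier results of these data known, and list members beyond the 4 with the largest changes were named after their values were seen. Some genes under these rules are not reported here. Sequences are RefSeq promoters (GRCh38.p14), and coordinates of peaks are hg38 as deposited.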

Additional observations from a re-analysis of the deposited data

Results flagged for a closer look

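In 5 of the named genes the response of MDA-MB-231 stood apart from those of the other 8 lines, as the gap to the nearest line against the whole range; chance alone flags about 1 in 20 groups, and more where, as here, genes were named for a large change in that line, so these are values and no test. IVL stood at -1.16 (log2, COMBO over DMSO, libraries summed per line) where the other lines ran from -0.09 to 0.52. HOXC5 stood at 1.24 against -0.51 to 0.25, HOXC12 at 0.89 against -0.11 to 0.25, HOXC13 at 0.47 against -0.12 to 0.13 and HOXC10 at 0.47 against -0.23 to 0.03. The 4 HOXC genes are neighbours in the same cluster, so they are not taken as independent. None of the 5 passed the test of the difference between MDA-MB-231 and the other lines (adjusted p = 1).

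Among the named genes that were called, 2 moved opposite to all 8 other lines: H4C9 at 0.73 against -3.17 to -0.47, and ACTB at 0.058 against -0.25 to -0.02. The difference was tested with lines as replicates and did not pass (adjusted p = 1 for both). DESeq2 called neither change in MDA-MB-231 (adjusted p = 0.0715 and 0.254).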

How the results depend on the processing

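Peaks risen (19759) and peaks fallen (17161) became 8387 and 6166 by DESeq2 and 11913 and 9398 with a minimum count of 30, which tested 96438 peaks, and by total counts 11403 fell. Genes risen (3281) and genes fallen (2159) became 1786 and 737 by DESeq2 (70.8% of calls risen, against 60.3%), 1566 and 782 within 1 kb of a TSS, and 3770 fell within 50 kb. Without 1 library, 14868 to 16191 peaks rose and 12058 to 13881 fell, and 2692 to 2808 genes rose and 1524 to 1753 fell. Genes above additivity (19) and genes below additivity (2) became 12 and 1 with trended offsets, 0 and 0 by DESeq2, 2 and 0 within 1 kb, 52 and 11 within 50 kb, and 3 to 26 and 0 to 3 without 1 library. Genes with a higher response than in the other 8 lines numbered 2 by DESeq2 and 1 without HCC1143 or without SUM-159PT, against 0, and 1 gene had a lower response by DESeq2. Except for the narrower gene windows and fewer peaks tested, the cause was not tested.

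With a replicate block, 19677 peaks rose and 17132 fell, and 3284 genes rose and 2168 fell; same-numbered COMBO and DMSO libraries did not deviate together (correlations -0.0009, -0.001 and -0.004), so the block is no pairing. The promoter share of counts stayed lower in COMBO in each setting run. Of the 20 peaks chosen for large changes by the naming rules above, some of them only within 1 kb of a TSS, each kept its direction and call in each setting run. They had passed a filter on level and overlap and do not stand for all large changes. The promoter peaks of ENPP5, MC4R, PHF10, FLOT1 and LEKR1 and the HOXC peaks were not refitted. Named genes kept both in 1725 refits, lost the call in 171 and gained it in 5, and changed sign in 8. Those were IRS2 (-0.0645 to 0.0481 without 1 library, and -0.13 within 50 kb), the likewise uncalled AKT1 (-0.092), VIM (0.12) and BMF (-0.10) within 1 kb, and the called HOXC10 within 1 kb (-0.26) and FASN within 50 kb (-0.0338). Counting depth limits genes and peaks under a few CPM.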

Other observations

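Of 3277 genes that rose in MDA-MB-231, 46 were down in all 8 other lines, and of 2157 that fell, 27 were up in all 8. Over all 21519 genes, 2541 were down in all 8 and 1269 up in all 8, so such genes were rarer among the called. Genes to name were drawn from the 57 of both kinds with no overlap between COMBO and DMSO libraries and a mean log2 CPM not under 2. All 57 had been called on the same libraries, so the lack of overlap adds no support to the calls. The share of all genes without overlap is not given here. The 57 were picked for this pattern, so the values are a description. AMH, the anti-Mullerian hormone gene, rose by 1.07 in MDA-MB-231, against a mean change of -0.43 in the others. PLPPR3, a neuronal phosphatase-related protein, rose by 0.86 against -0.20 (adjusted p of the difference 0.456). WSCD2 fell by 0.80 against 0.71 and LRFN2, a synaptic adhesion gene, fell by 0.76 against 0.25. The neuronal adhesion gene NFASC fell by 0.53 against 0.48. None of the 57 passed the test of the difference, and the smallest adjusted p among them was 0.456.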
